A study of Mus musculus with 140 samples.

Results

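Cdh1, Tjp1, Ocln, Epcam, Dsp, Cldn7 and Crb3 encode proteins of epithelial cell junctions, adhesion and apical polarity. This section describes the silencer intervals listed around these 7 mouse genes in fibroblasts and in embryonic stem cells. An interval was taken where it overlapped by at least 1 bp the gene body or the 10 kb on either side of it (the gene's territory, mm10 with GENCODE M21 gene models). Of 204761 listed intervals, 86 lay in these territories. The list for mouse embryonic fibroblasts (MEFs) gave 41 of its 89596 intervals, and the list for mouse embryonic stem cells (mESCs) gave 45 of its 115165. All 7 genes had at least 1 interval of each list. Of 21911 protein-coding genes, 17970 had at least 1 interval of either list in their territory. Ranked by intervals per Mb, these 21911 genes had no MEF interval up to the 31st percentile and no mESC interval up to the 24th.

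The screen used Ss-STARR-seq, in which genomic DNA sheared by sonication is cloned into reporter plasmids, cells are transfected with the pool, and both the plasmid DNA and the RNA made from it are sequenced. The labels describe 140 libraries: 20 of the input plasmid library (whose labels name hPGK and the mESC source), 64 of reporter RNA from MEFs in 4 numbered output sets, and 56 of reporter RNA from mESCs in 3 numbered output sets. MEFs were grown in DMEM with fetal bovine serum, and mESCs in N2B27 medium with LIF and the inhibitors CHIR99021 and PD0325901. The labels give no strain, sex, passage or clone for either cell type. Their protocol also names an induction medium, iCD1, for MEFs without saying which libraries it concerns. The lists hold no expression values with which to check the labelled cell types against their markers. Each cell type has 1 list, so no difference between them had a replicate check, no interval comes with a read depth, and the confidence intervals below cover counting error only.

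Epithelial cells are joined near their apical side by tight junctions, below them by adherens junctions, and along their flanks by desmosomes. E-cadherin binds the E-cadherin of the neighbouring cell and anchors the actin belt through catenins, claudins and occludin seal the space between cells, and desmoplakin ties desmosomes to intermediate filaments. Mouse embryonic stem cells express E-cadherin and other epithelial genes, whereas fibroblasts express E-cadherin weakly. Regaining epithelial junctions, the mesenchymal-to-epithelial transition, is an early step when fibroblasts are reprogrammed to pluripotency. A silencer is a DNA element that lowers transcription from a promoter. In such an assay an interval reports what the fragment did on a plasmid, not at its place in the chromosome.

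The sequences of 8 of the 86 intervals are shown because they are the highest of their kind at a gene, have the same bounds in both lists, or lie in the body of a gene that has few. All are from the plus strand of GRCm38.p6, the assembly that mm10 displays. Capitals mark matches to the motifs searched, on either strand: the E-box CACCTG that SNAI and ZEB repressors bind, the TCF/LEF core CTTTGA and the TEAD site GGAATG. A match on the minus strand shows as its reverse complement. The Cdh1 interval at chr8:106674652-106674901 had the highest MEF fold of all 86, and the one at chr8:106602214-106602363 was the nearest to the Cdh1 start site.
Cdh1 downstream: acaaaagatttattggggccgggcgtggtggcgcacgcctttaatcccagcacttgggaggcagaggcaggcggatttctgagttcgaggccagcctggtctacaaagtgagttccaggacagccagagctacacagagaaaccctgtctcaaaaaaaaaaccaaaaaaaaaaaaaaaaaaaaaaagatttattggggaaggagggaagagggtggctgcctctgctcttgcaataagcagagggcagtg
Cdh1 upstream: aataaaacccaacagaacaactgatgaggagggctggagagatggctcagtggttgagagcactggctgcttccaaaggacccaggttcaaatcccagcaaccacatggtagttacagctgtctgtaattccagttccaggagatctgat
The first holds a long run of adenines, and neither holds a motif match. Both lists gave the same bounds to the Ocln intervals at chr13:100530252-100530501 and chr13:100536452-100536651, of which the second holds a CACCTG and a TCF/LEF match.
Ocln intron 4: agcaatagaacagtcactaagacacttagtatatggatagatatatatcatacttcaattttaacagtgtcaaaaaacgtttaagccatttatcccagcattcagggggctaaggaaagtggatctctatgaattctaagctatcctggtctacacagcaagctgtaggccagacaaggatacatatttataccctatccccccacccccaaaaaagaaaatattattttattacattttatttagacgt
Ocln intron 3: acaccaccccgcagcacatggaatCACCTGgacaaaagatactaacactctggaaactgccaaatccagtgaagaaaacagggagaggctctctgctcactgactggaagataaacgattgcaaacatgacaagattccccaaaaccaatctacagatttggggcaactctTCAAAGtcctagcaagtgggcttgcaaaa
The Dsp interval at chr13:38190601-38190800 is the MEF part of the overlap with the highest mESC fold of all 86, and holds a TCF/LEF match.
Dsp intron 22: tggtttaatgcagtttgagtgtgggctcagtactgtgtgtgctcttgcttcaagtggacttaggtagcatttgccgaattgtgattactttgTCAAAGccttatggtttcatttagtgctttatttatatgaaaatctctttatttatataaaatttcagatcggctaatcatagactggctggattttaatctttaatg
The last 3 come from the genes with short territories: the MEF interval inside Epcam at chr17:87638386-87638635, the MEF interval nearest to Cldn7 at chr11:69962238-69962287, and the mESC interval inside Crb3 at chr17:57064302-57064501.
Epcam intron 2: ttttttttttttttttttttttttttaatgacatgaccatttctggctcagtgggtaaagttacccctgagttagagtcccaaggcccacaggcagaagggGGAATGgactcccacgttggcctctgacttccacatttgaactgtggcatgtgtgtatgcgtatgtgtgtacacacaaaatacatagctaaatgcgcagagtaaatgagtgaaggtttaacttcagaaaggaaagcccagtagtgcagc
Cldn7 upstream: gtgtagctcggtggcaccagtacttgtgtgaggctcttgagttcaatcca
Crb3 intron 3: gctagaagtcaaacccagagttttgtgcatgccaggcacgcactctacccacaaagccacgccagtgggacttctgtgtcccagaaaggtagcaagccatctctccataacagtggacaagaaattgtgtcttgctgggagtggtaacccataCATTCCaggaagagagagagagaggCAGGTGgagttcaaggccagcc

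Cdh1 encodes E-cadherin, the classical cadherin of epithelial adherens junctions. The gene (chr8:106603351-106670246, plus strand) had 8 MEF and 8 mESC intervals in a territory of 86.9 kb, and 4 of each overlapped the other list. The authors' fold, a linear ratio given with each interval and at least 2 throughout, was highest 4.41 kb past the gene's end, at the interval printed first: 6.47 in MEFs, against 3.95 for the mESC interval that overlapped it by 241 bp. Upstream of the start there were 3 MEF intervals with folds of 2.95, 2.07 and 3.67 and 4 mESC intervals with folds of 3.00, 4.52, 2.50 and 2.58. The MEF interval of fold 3.67 ended 0.988 kb before the start and had no mESC partner. The mESC interval of fold 4.52, only 50 bp long and 7.86 kb upstream, had no MEF partner. Intron 2 held 2 MEF intervals (folds 2.14 and 2.24) and 2 mESC intervals (2.07 and 2.21), none of which overlapped another. Intron 5 held the pair with the closest folds, 2.33 in each list. The remaining MEF interval lay in intron 8 with a fold of 2.46. So Cdh1 was evenly covered by the lists, with its high folds outside the gene body and all 7 intervals inside it at 2.46 or lower.

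**Figure D1:**
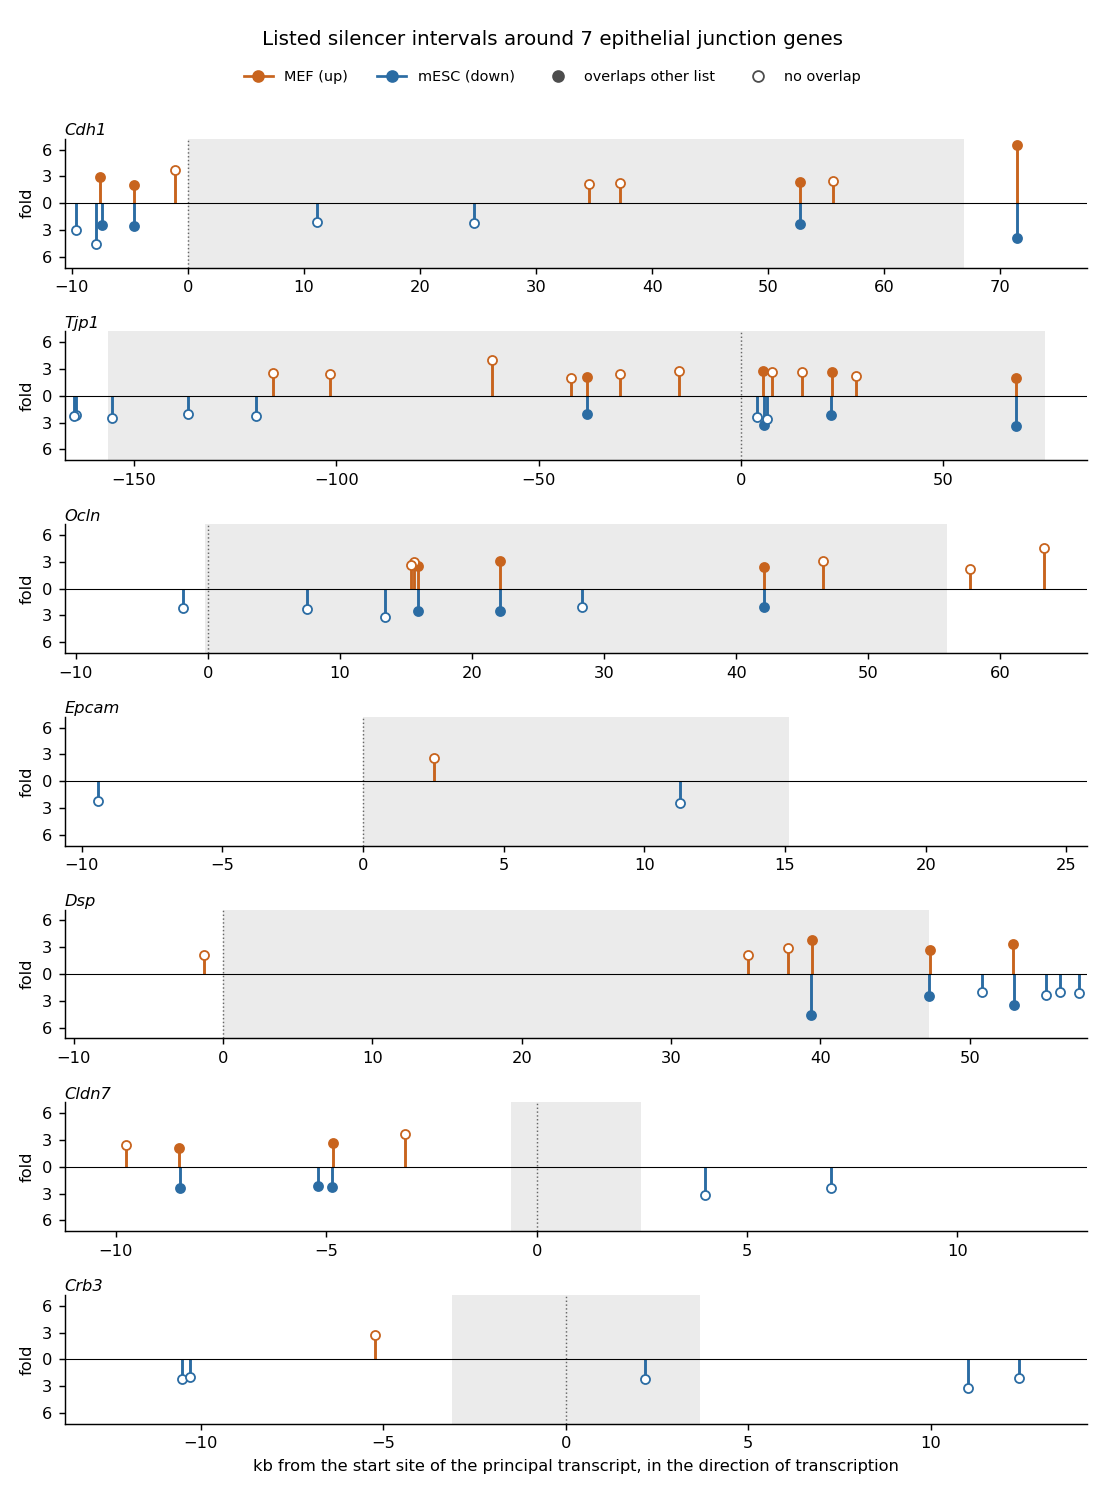
Listed intervals in the territory of each gene. The horizontal axis is the distance in kb of an interval's midpoint from the start site of the principal transcript (dotted line), in the direction of transcription; grey marks the gene body. The height of each stem is the authors' fold (ratio), drawn upwards for MEF and downwards for mESC intervals, and filled points overlap an interval of the other list. The tallest stem is the MEF interval of fold 6.47 past the end of Cdh1, and no stem lies inside the body of Cldn7.

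The plot of intervals by position shows Tjp1 as the gene with the most intervals. Tjp1 encodes ZO-1, the scaffold that links claudins and occludin to actin. The gene (chr7:65296165-65527781, minus strand) had 13 MEF and 11 mESC intervals in 251.6 kb. All 13 MEF intervals and 9 of the mESC intervals lay in the gene body, and 4 of each overlapped. The principal transcript starts at position 65371239, and 7 MEF and 4 mESC intervals lay in the gene body before that start, in introns of a protein-coding transcript that starts at position 65527696. These 7 MEF folds ran from 2.02 to 4.02 and these 4 mESC folds from 2.01 to 2.48. The only overlapping pair in this long stretch had folds of 2.12 (MEF) and 2.01 (mESC). The mESC interval at chr7:65526602-65526951, of fold 2.48, lay in intron 1 with its midpoint 0.92 kb after that farther start. It holds CACCTG, TEAD and TCF/LEF matches and has no MEF partner. Downstream of the principal start, intron 1 held a MEF interval of fold 2.77 inside a 650 bp mESC interval of fold 3.31, and 2 more of each list without a partner (2.72 and 2.63 in MEFs, 2.59 and 2.32 in mESCs). Intron 2 held a pair of folds 2.72 (MEF) and 2.13 (mESC). Exon 25, a coding exon, held a pair of folds 2.02 (MEF) and 3.35 (mESC), and exon 4, also coding, held a MEF interval of fold 2.20 alone. The 2 mESC intervals outside the gene body lay 7.67 and 8.07 kb upstream with folds of 2.15 and 2.29.

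Ocln encodes occludin, a transmembrane protein of tight junctions. The gene (chr13:100496507-100552718, minus strand) had 8 MEF and 7 mESC intervals in 76.2 kb, of which 6 and 6 lay in introns of the gene. The interval printed for intron 4 had folds of 3.11 (MEF) and 2.55 (mESC), and the one printed for intron 3 had 2.50 (MEF) and 2.56 (mESC). These were the only pairs among the 7 genes whose bounds were identical in MEFs and mESCs. Another pair, in intron 6, was offset by 8 bp with folds of 2.42 and 2.06. Intron 3 was the most crowded, with 3 MEF intervals (folds 2.50, 2.96 and 2.62) and 2 mESC intervals (2.56 and 3.21) close to each other. The highest fold of the territory, 4.54 in MEFs, belonged to a 50 bp interval 7.26 kb past the gene's end, inside the neighbouring gene Gtf2h2. The other MEF intervals had folds of 3.13 in intron 7 and 2.24 at 1.56 kb past the end, and the other mESC intervals 2.04 in intron 4 and 2.27 in intron 1. The nearest to the Ocln start was an mESC interval of fold 2.13, 1.53 kb upstream.

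Cldn7 encodes a claudin, one of the proteins that set which ions cross a tight junction. The gene is short (chr11:69964779-69967885, plus strand), and none of its 4 MEF and 5 mESC intervals lay inside it. Its territory of 23.1 kb had the highest density of the 7 in both lists, 173.1 MEF and 216.4 mESC intervals per Mb. An 853 bp MEF interval 3.80 kb upstream (fold 2.68), the longest of the 86, overlapped 2 mESC intervals (2.18 and 2.26). A second overlap 7.58 kb upstream had folds of 2.10 (MEF) and 2.35 (mESC). The MEF interval printed above lay 2.49 kb upstream with a fold of 3.63, and another MEF interval 9.12 kb upstream had 2.38, both without a partner. The 2 mESC intervals downstream, of folds 3.14 and 2.37, lay inside the neighbouring gene Elp5.

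Dsp encodes desmoplakin, which links the desmosomal plaque to intermediate filaments. The gene (chr13:38151294-38198577, plus strand) had 6 MEF and 7 mESC intervals in 67.3 kb, with 3 overlaps. In intron 22 the mESC fold was 4.63, the highest of the 45 mESC intervals, and the MEF interval inside it had 3.76. A second overlap, 5.59 kb past the gene's end, had folds of 3.36 (MEF) and 3.46 (mESC) and consisted wholly of masked repeat. The third lay at the gene's end, with folds of 2.72 (MEF) and 2.50 (mESC). Introns 17 and 20 held MEF intervals of folds 2.09 and 2.92, and a MEF interval of fold 2.13 ended 1.25 kb before the start. The 4 mESC intervals without a partner, of folds 2.03 to 2.30, were all downstream, 3 of them inside the neighbouring gene Snrnp48.

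Crb3 encodes a small membrane protein of the Crumbs complex, which defines the apical surface. The gene (chr17:57059105-57065918, plus strand) had 1 MEF and 5 mESC intervals in 26.8 kb, the most uneven pair of counts among the 7, and none overlapped. Only the mESC interval printed above (fold 2.20, intron 3) lay in the gene. The MEF interval (2.72) and 2 mESC intervals (2.21 and 2.01) were upstream inside Slc25a23, and the other 2 mESC intervals (3.25 and 2.03) were downstream inside Dennd1c. Epcam encodes the epithelial cell adhesion molecule, which supports adhesion and signalling in epithelia and stem cells. The gene (chr17:87635979-87651129, plus strand) had the fewest, with 1 MEF interval in intron 2 (fold 2.61), 1 mESC interval in intron 8 (2.44) and 1 mESC interval 9.23 kb upstream (2.16), none overlapping.

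**Figure D2:**
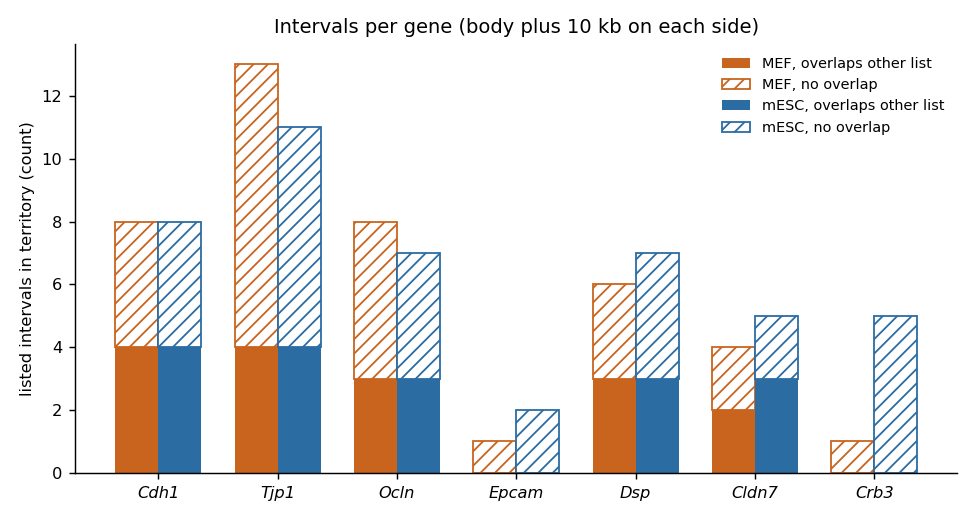
Number of listed intervals in the territory (gene body plus 10 kb on each side) of each gene, with MEF in orange and mESC in blue. The solid part of a bar is the number that met an interval of the other cell type (1 bp or more) and the hatched part the number that did not. Epcam and Crb3 have no solid part, and Crb3 has 5 mESC intervals against 1 MEF interval.

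The plot of counts by gene shows that neither list was the larger throughout. Epcam, Dsp, Cldn7 and Crb3 had more mESC than MEF intervals, Tjp1 and Ocln had fewer, and Cdh1 had equal numbers. Across all protein-coding genes with at least 1 interval, 55.6% had more mESC intervals, so 4 of 7 is near the background. Of the 86 intervals 52.3% were from the mESC list (95% exact binomial interval 41.3 to 63.2), which takes in the 56.2% of both whole lists. The count of 4 rested on the flank: it was 1 with the gene body alone (Crb3), 1 with a flank of 5 kb and 6 with a flank of 50 kb. The shares over all genes with an interval were then 55.4%, 55.1% and 65.4%. The mESC share of each gene was tested against 56.2% with a two-sided exact binomial test over the 3544 protein-coding genes with at least 10 intervals, and Benjamini-Hochberg adjustment called 0 of them (0%), with 30 at an unadjusted p under 0.05. Cdh1, Tjp1, Ocln and Dsp had enough intervals to be tested. Their unadjusted exact binomial p-values were 0.624 for Cdh1 (8 of 16 from mESCs), 0.312 for Tjp1 (11 of 24), 0.604 for Ocln (7 of 15) and 1 for Dsp (7 of 13), and each adjusted p was 1. With so few intervals per gene these values do not show that the lists were alike at a gene. The test and the interval on the 52.3% also treat intervals as independent, although both intervals of an overlapping pair are counted. Over all protein-coding territories 47.6% of MEF and 36.2% of mESC intervals overlapped the other list, and the p-values ignore this.

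Together the territories span 567.1 kb. They held 72.3 MEF intervals per Mb (95% exact binomial interval 51.9 to 98.1) and 79.4 mESC intervals per Mb (57.9 to 106.2), beside 36.9 and 48.3 per Mb over the territories of all 21911 protein-coding genes. These binomial intervals treat listed intervals as independent and leave out the spread between genes. Single genes ran from 28.4 to 173.1 (MEF) and from 43.7 to 216.4 (mESC) per Mb. Whether the 7 genes as a group are denser than others was not tested. The median gene of the 7 had 89.2 MEF and 92.1 mESC intervals per Mb, beside medians of 31.3 and 40.6 over all protein-coding genes. Cldn7 stood at the 99.6th percentile of protein-coding genes for MEF density and the 99.7th for mESC density. Ocln (95.4th and 85.6th), Cdh1 (92.8th and 85.7th) and Dsp (92.0th and 89.7th) followed for MEF density. Crb3 was at the 57.9th percentile for MEF and the 99.2nd for mESC density. Tjp1 stood at the 74.2nd and 54.0th and Epcam at the 46.5th and 65.9th. Densities in the short territories of Cldn7, Crb3 and Epcam rest on 9, 6 and 3 intervals. Without Tjp1, whose territory is the longest, the pooled mESC density was 107.8 per Mb. With only the intervals at or above the median fold of their list, the 7 genes had 51.1 MEF and 31.7 mESC intervals per Mb, beside 17.8 and 23.3 over all genes. The mESC share was then 38.3% (24.5 to 53.6), and this interval lay below the 56.6% over all genes at the same folds.

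**Figure D3:**
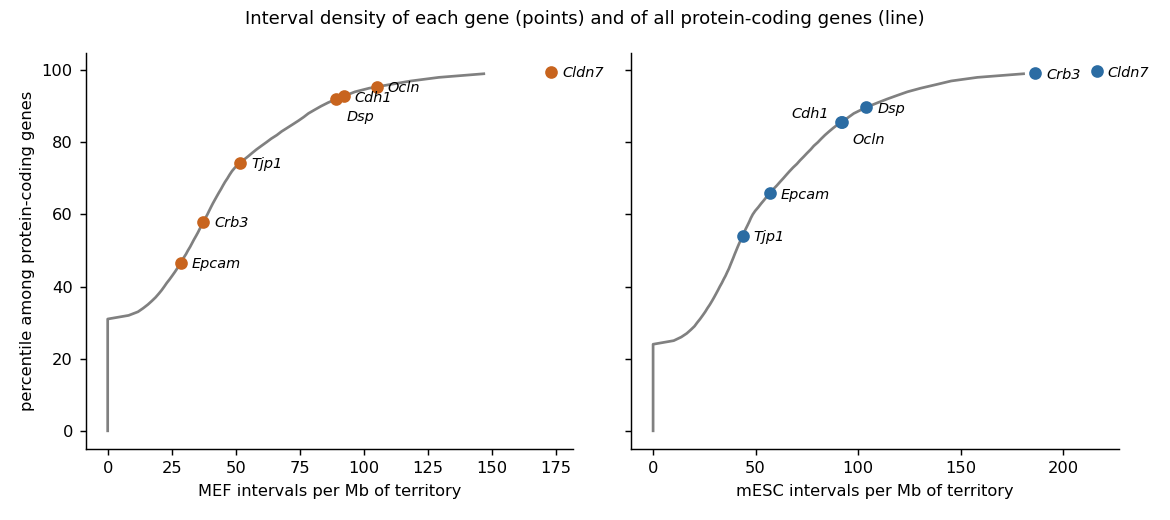
Listed intervals per Mb of gene territory (horizontal axes, MEF left and mESC right) against the percentile among 21911 protein-coding genes. The grey line is the distribution over all of them up to the 99th percentile and each point is 1 of the 7 genes. Cldn7 lies beyond the end of the line in both panels and Crb3 in the mESC panel only, while Epcam and Crb3 are the lowest points of the MEF panel and Tjp1 and Epcam those of the mESC panel.

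In the plot of density against percentile Cldn7 stands apart from the other 6 genes for MEFs, and Cldn7 and Crb3 stand together at the top for mESCs. Intervals lay in the gene body at 6 of the 7 genes, all but Cldn7, beside 56.4% of all protein-coding genes. Gene length was not matched in this comparison, and the 7 bodies run from 3.11 kb (Cldn7) to 231.6 kb (Tjp1). Of the 41 MEF intervals 27 lay in a body (65.9%, 95% exact binomial interval 49.4 to 79.9), beside 71.5% over all protein-coding territories. Of the 45 mESC intervals 22 did (48.9%, 33.7 to 64.2), beside 70.8%, although gene bodies made up 75.3% of the territory of the 7 genes and 71.0% over all genes. The binomial interval took in the share over all genes for MEFs and lay below it for mESCs. By gene, the mESC intervals in the body were 9 of 11 (Tjp1), 6 of 7 (Ocln), 3 of 8 (Cdh1) and 2 of 7 (Dsp). They were 1 of 2 at Epcam, 1 of 5 at Crb3 and 0 of 5 at Cldn7. The bodies of Cldn7 and Crb3 are short (3.11 and 6.81 kb), and the mESC share without them was not computed. An interval within 1 kb of the gene's start was found at 2 of the 7 genes, a MEF interval at Cdh1 and an mESC interval at Tjp1, beside 8.41% of all protein-coding genes. By the principal transcript, 18 MEF and 16 mESC intervals lay in introns and 2 MEF and 2 mESC intervals in exons. Another 7 MEF and 4 mESC intervals lay in the body of Tjp1 outside its principal transcript. Upstream flanks held 9 MEF and 13 mESC intervals, and downstream flanks 5 and 10. Of the 86, 2 MEF and 10 mESC intervals also overlapped another gene, 5 of them at Crb3. The 10 mESC intervals were at Crb3 (4), Dsp (3), Cldn7 (2) and Cdh1 (1). The counts by intron, exon, flank and other gene were not computed over all protein-coding territories, so no difference between the lists is drawn from them.

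An interval of each list that overlapped the other list was present at 5 of the 7 genes, the exceptions being Epcam and Crb3. This was so at 60.9% of protein-coding genes with at least 1 interval, not matched for length. Of the 41 MEF intervals 16 overlapped an mESC interval (39.0%, 95% exact binomial interval 24.2 to 55.5), beside 47.6% of MEF intervals counted over all protein-coding territories. Of the 45 mESC intervals 17 overlapped a MEF interval (37.8%, 23.8 to 53.5), beside 36.2%. Both binomial intervals take in the background share. The overlaps formed 17 pairs, because 1 Cldn7 MEF interval met 2 mESC intervals.

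**Figure D4:**
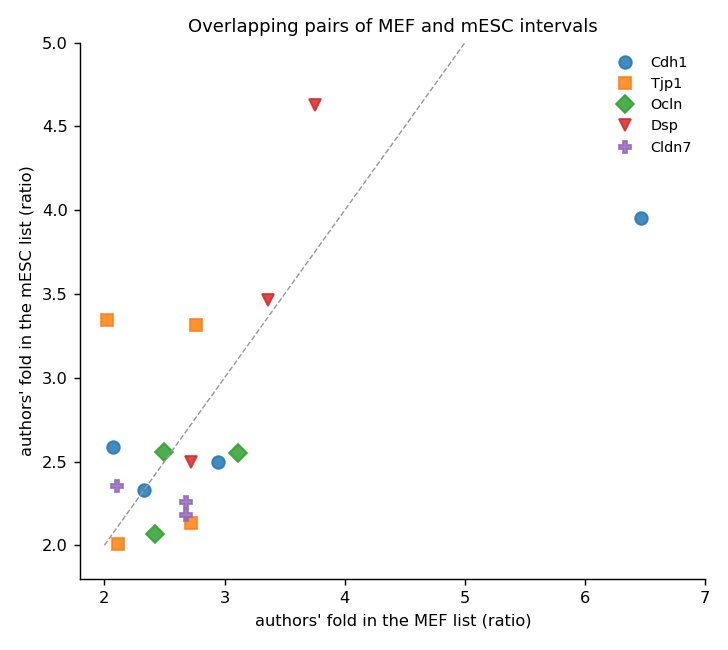
The authors' fold (ratio) in the MEF list (horizontal axis) and in the mESC list (vertical axis) for the 17 overlapping pairs, with a symbol for each gene. The dashed line marks equal folds, and the axes are not drawn to the same scale. Most pairs lie between 2 and 3 in both lists, and the Cdh1 pair of folds 6.47 and 3.95 is the farthest to the right.

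The plot of paired folds shows that a high fold in 1 list was not always high in the other. The Dsp pair in intron 22 (3.76 in MEFs, 4.63 in mESCs) and the Cdh1 pair past the gene's end had the 2 highest folds of each list among the pairs. The Tjp1 pair in exon 25 stood at 2.02 in MEFs and 3.35 in mESCs. Folds of the 2 lists are set side by side here only as the authors gave them, since the scaling of each list is not given in the sources used here. Among the 41 MEF intervals the fold ran from 2.02 to 6.47 with a median of 2.62, beside 2.36 over the whole MEF list, and 29 were at or above that list median. Among the 45 mESC intervals it ran from 2.01 to 4.63 with a median of 2.30, beside 2.42, and 18 were at or above it. Folds above 4 were held by 3 MEF intervals (Cdh1, Ocln and Tjp1; 7.32%, beside 5.92% of the list) and 2 mESC intervals (Cdh1 and Dsp; 4.44%, beside 7.99%). The folds are coarse: 99.0% of MEF intervals and 99.2% of mESC intervals share their fold to the last digit with another interval of their list. The MEF fold 2.72 at Tjp1 (in intron 1 and in intron 2), at the end of Dsp and upstream of Crb3 was the same value to 6 decimals, and 3051 MEF intervals carried it.

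The median interval at these genes held more repeat than that of the whole lists, but no error was computed for these medians. A median of 46.7% of the bases of a MEF interval and 44.5% of an mESC interval at these genes was soft-masked as repeat in the assembly, beside 29.7% and 33.0% in the whole lists. No masked base was found in 5 MEF intervals (12.2%, beside 18.6% of the list) and 5 mESC intervals (11.1%, beside 16.9%). Fully masked were 3 MEF (7.32%, beside 9.34%) and 4 mESC intervals (8.89%, beside 10.1%), so full masking was not more frequent than in the lists. The Cdh1 interval of the highest fold was 87.2% masked and the one nearest the Cdh1 start 94.7%, whereas the MEF interval nearest to Cldn7 had no masked base. To see how far such sequence recurs, each interval was cut in words of 20 bases and matched on both strands with all other intervals of its list. Words with fewer than 8 different runs of 3 bases were left out. The shares below are over intervals with a word left, 89561 in the MEF list and 115139 in the mESC list. At least 1 word was shared by 25 of 41 MEF intervals (61.0%, beside 46.7% of the list) and by 29 of 45 mESC intervals (64.4%, beside 51.4%). No binomial interval was computed for these shares, so whether they exceed those of the lists beyond counting error was not tested. The Cdh1 interval of fold 6.47 shared words with 5049 other MEF intervals (5.64% of the list), and the one nearest the Cdh1 start with 2051. The Dsp interval in intron 22 and the Ocln interval in intron 3, both printed above, shared words with no other MEF interval. How reads from repeated sequence were placed is not given in the sources used here, and the part of repeats in any of these folds or counts was not tested. The median GC content was 39.4% in MEF and 40.5% in mESC intervals at these genes, beside 40% in each whole list.

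Motifs were searched on both strands in windows of 300 bp centred on each interval. A window can reach past a short interval and leaves out the ends of a longer one. The E-box CACCTG was present in 6 of 41 MEF windows (14.6%, beside 15.2% of the list) and 11 of 45 mESC windows (24.4%, 95% exact binomial interval 12.9 to 39.5, beside 15.4%). The TCF/LEF core CTTTGA was present in 9 MEF windows (22.0%, beside 21.1%) and 11 mESC windows (24.4%, beside 19.9%). The TEAD site GGAATG was in 5 MEF windows (12.2%, beside 16.2%) and 5 mESC windows (11.1%, beside 16.4%). For the AP-1 site TGANTCA these were 3 (7.32%, beside 9.24%) and 4 (8.89%, beside 8.17%). For the ETS site AGGAAGT they were 2 (4.88%, beside 6.25%) and 0 (beside 5.96%). The grainyhead-like site AACCNGTT, named for factors that act in epithelia, was in 1 MEF window, at Dsp intron 20 (beside 1.92% of the list). It was in no mESC window (beside 1.94%), which allows a share of up to 7.87% by the exact binomial interval. The MYC E-box CACGTG was in 0 and 1 windows (beside 2.83% and 2.51%) and the GC box GGGCGG in 0 and 2 (beside 2.56% and 2.85%). The 350 bp MEF interval past the end of Ocln held a GC box outside its window. The binomial interval of each of the 8 motifs took in the share of its whole list. A match describes letters in a window and is not a bound site.

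Of 36 other junction genes 5 had no interval, and the densities over all 36 were 46.8 (MEF) and 59.0 (mESC) intervals per Mb, with 55.8% from mESCs. More mESC intervals were found at 17 of them and more MEF intervals at 7, and of the 12 with enough intervals for the per-gene exact binomial test none was called after adjustment. The most intervals were at Magi1, a tight junction scaffold (29 MEF and 33 mESC), and at the polarity scaffolds Pard3 (24 and 27) and Patj (16 and 29), all genes with long territories. By role, the 9 other adherens junction genes had 57.2 MEF and 72.2 mESC intervals per Mb, the 14 tight junction genes 49.3 and 55.9, the 7 desmosomal genes 30.1 and 30.1, and the 6 polarity genes 42.7 and 64.5. Cdh1, Ocln, Cldn7 and Dsp had densities above these pooled values of their own junction type in both lists. Tjp1 was below the tight junction value for mESCs (43.7) and Crb3 below the polarity value for MEFs (37.3). Single genes of a type reached higher, such as the catenin genes Ctnna1 (102.6 and 128.3 per Mb) and Ctnnd1 (127.3 and 113.2) beside Cdh1 (92.1 and 92.1). These 2 were named after their values were seen. The 6 factors that drive the loss of epithelial genes had densities of 36.4 (MEF) and 46.5 (mESC) per Mb; Zeb1, with 11 and 9, had the most. The 11 fibroblast matrix and surface genes had 24.5 and 43.4, with the most at Fbn1, which encodes fibrillin (8 and 10).

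Genes of like territory length (within 20%) whose densities were nearest were looked for at the 4 genes with at least 10 intervals. For Cdh1 these were Map2k1, Ptpn9 and Ell2, each with 8 MEF and 8 mESC intervals, at distances of 1.43, 1.47 and 1.96 intervals per Mb. For Tjp1 they were Cdk5rap2 (11 and 9), Zeb1 (11 and 9) and Pld1 (11 and 10), at 1.59, 2.41 and 2.90. For Ocln they were Carf (8 and 7), Gsr (7 and 6) and F5 (9 and 8), at 0.930, 1.73 and 3.50. For Dsp they were Mettl16, Rad50 and Cpm, each with 7 and 8, at 1.41, 1.45 and 1.48. The likeness rests on 2 lists, so it says only that these genes had similar interval counts for their length.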

How the data were processed

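The authors deposited 1 list of silencer intervals for MEFs and 1 for mESCs, each giving positions and a fold, which is a linear ratio. Per the submitters' processing notes the reads were handled with Bowtie2 and SAMtools, without versions. The notes name the build hg38 and the series design mm10. All intervals fit the mm10 chromosomes (0 past an end), and mm10 was used. How the fold was divided, which caller was used and whether replicates were pooled is not given in the sources used here. Listed starts were read as BED, so printed starts are 1 higher and uncertain by 1 bp.

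Gene bodies came from the GENCODE M21 basic annotation, introns and exons from each gene's principal (APPRIS) transcript, and the Tjp1 transcript with the farther start from the comprehensive annotation. Sequence and masked repeats came from GRCm38.p6. Counts, exact binomial tests and intervals were computed with Python 3.11.15, pandas 2.3.3 and SciPy 1.17.1. The per-gene test was tried on simulated data with independent intervals, which leaves out the overlap of the lists. Text named the 7 genes, genes sharing their intervals, the 3 genes nearest in density to each tested gene, the 3 fullest of the other junction genes and the fullest of the other lists. The genes and lists were chosen with earlier results of these data known. Of 37 other junction symbols 36 were in the annotation. Flank, overlap, fold and membership alternatives were tried. Values per library were not analysed here, and the sequence of a Tjp1 interval is not reported here.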

Additional observations from a re-analysis of the deposited data

How the results depend on the processing

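Of the alternatives tried, 84 values were taken as unchanged and 8 as moved, and the cause was not tested. A density or share was unchanged if it lay within the exact binomial interval of the reported value. Counts have no such interval and were judged by their ratio to the reported count. With the gene body alone the mESC density was 51.5 per Mb and 1 of the 7 genes had more mESC than MEF intervals. With a flank of 5 kb that count was also 1. With 50 kb it was 6, which the ratio rule placed among the 84. With intervals at or above the median fold of their list, densities were 51.1 (MEF) and 31.7 (mESC) per Mb. The mESC share was 38.3% (24.5 to 53.6, below the 56.6% over all genes, with intervals taken as independent) and the count was 1. This setting kept 44827 of 89596 MEF and 57597 of 115165 mESC intervals. Lower densities therefore follow largely from the filter, although both were counted among the 8. Leaving out each gene in turn, the MEF density ranged from 67.2 to 88.8 per Mb and the mESC density from 73.5 to 107.8, the highest without Tjp1. The mESC share ranged from 50% to 54.8%, the count from 3 to 4, and the overlapping shares from 36.4% to 42.9% (MEF) and from 35.0% to 42.5% (mESC). The per-gene exact binomial test called 0 of 1662 genes on list-only intervals and 0 of 8239 with at least 5 intervals, each with 68 at an unadjusted p under 0.05. Reading the listed start as the first base, chosen after seeing the data, left every value as reported. Which depth lies behind an interval is unknown. No paired analysis was possible because the lists hold no values per library.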

Other observations

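Spacing differed among the genes. Consecutive intervals of 1 list were at least 1.89 kb apart at Tjp1 in MEFs and as close as 0.25 kb in mESCs. At Ocln the closest MEF intervals were 0.05 kb apart, and at Cldn7 the closest mESC intervals were also 0.05 kb apart. The widest stretch without an mESC interval was 81.8 kb at Tjp1, and 4 MEF intervals of folds 2.02, 4.02, 2.43 and 2.55 lay within it. At Cdh1 the widest stretch without a MEF interval was 35.4 kb.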
